A study of Mus musculus with 9 samples.

Results

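The 9 genes described here are immune checkpoint genes and "don't-eat-me" genes that myeloid cells use to restrain, or to be restrained by, other cells. They were chosen by name, with earlier results of these data known, as the rows of Cd274, Pdcd1, Havcr2, Lgals9, Sirpa, Cd47, Cd86, Cd200 and Cd200r1 in every deposited table, and they are 9 of 12949 gene symbols found in all 9 tables. All 9 were listed in every table, so that none had to be treated as missing. Each was followed through every cell class of the mouse-derived tumor microenvironment (TME), vascular and glial cells included.

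The samples were patient-derived orthotopic xenografts (PDOXs), tumors that human glioblastoma (GBM) organoids form after implantation into the mouse brain, so that tumor cells are human and TME cells are of the mouse. Drop-seq, a droplet method that reads the 3' end of transcripts, gave unique molecular identifiers (UMIs) per gene and cell barcode. Every mouse was of the strain Nude, the control included, and such athymic mice make very few T cells. There were 7 untreated PDOXs, named after their tumors T101, T192, T233, T16, P3, P8 and P13, as well as 1 PDOX of P3 after temozolomide (TMZ), an alkylating drug, called P3TMZ here, and 1 Nude brain without tumor (Nu-NB). T192 and T233 derive from the same patient. Each sample is 1 library, and the labels give neither an age nor the number of animals behind it, so that p-values measure the spread between libraries.

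The Nu-NB library held 1519323 UMIs in total, and the untreated PDOX libraries held 1294068 to 8410580. After filtering, 722 to 2770 cells per sample were kept, and the median depth per cell was 513 to 1274.5 UMIs in the PDOXs against 536 in Nu-NB. No pair of libraries shared more than 11 cell barcodes. FACS was used for Nu-NB and P8, whose tables also carry older gene symbols, whereas the other 7 libraries were made after magnetic depletion of human cells, so that sort and symbol release cannot be told apart. Clusters were named from marker genes and carry the ending "-like". In the 7 PDOXs the 14 myeloid markers summed to between 35320 and 49670 CPM (UMIs of a gene per 1000000 UMIs) in myeloid-like cells and to between 364 and 2175 CPM in endothelial-like cells. The 12 endothelial markers summed to between 14061 and 29293 CPM in endothelial-like cells and between 400.3 and 696 CPM in myeloid-like cells. Over all samples, 4561 cells were called myeloid-like, 2190 endothelial-like, 541 mural-like, 2901 astrocyte-like and 906 OPC-like (oligodendrocyte precursor cells). A further 1433 cells were set apart as mixed. Of these, 863 lay in clusters that showed the markers of several classes at once, and 570 lay in named clusters but carried mainly the markers of another class themselves. Unnamed clusters held 1543 cells, and no cluster was named for lymphocytes.

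As background, checkpoint receptors are surface proteins that dampen immune cells when a ligand on a neighboring cell engages them. PD-L1 (Cd274) engages PD-1 (Pdcd1), galectin-9 (Lgals9) is a ligand of TIM-3 (Havcr2), CD47 engages SIRPα (Sirpa) on phagocytes and thereby holds back engulfment, and CD200 engages its receptor CD200R (Cd200r1) on myeloid cells. CD86 is a costimulatory ligand that binds CD28 on T cells and also the inhibitory receptor CTLA-4. In the healthy brain, neurons and endothelial cells are known sources of CD200, and microglia carry SIRPα.

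The genes lie on 5 chromosomes of the mouse genome (GRCm38, GENCODE annotation). Cd274 lies at chr19:29367455-29388095 on the plus strand, and Pdcd1 at chr1:94038305-94052553 on the minus strand. Havcr2 lies at chr11:46454935-46481255 (plus) and Lgals9 at chr11:78962974-78984946 (minus). Sirpa lies at chr2:129592835-129632228 (plus). Chromosome 16 holds the other members, Cd86 at chr16:36603869-36666081 (minus), Cd200r1 at chr16:44765736-44794978 (plus), Cd200 at chr16:45382135-45409053 (minus) and Cd47 at chr16:49800533-49915010 (plus).

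Promoters of 6 of the 9 members were found in RefSeq (GRCm38.p6), from 250 bases before to 50 bases after the start. Each was searched on both strands for 4 motifs, namely the interferon-stimulated response element (GAAA, 2 bases of any kind, GAAA), the STAT motif TTCNNNGAA, the NF-kB motif (GGG, 2 bases of any kind, TTTCC) and the ETS motif AGGAAGT. Of all 32851 promoters of that length, 3.44% held the first, 8.30% the second, 1.63% the third and 9.35% the fourth. Only Lgals9 and Havcr2 held a match, and both are shown because they encode a ligand and its receptor and because each held a pair of matches to a single motif. No printed match overlaps a match to another motif. Lgals9 held the interferon motif 2 times, as 0.225% of all promoters did, and Havcr2 held the ETS motif 2 times, as 0.645% did. The matches are in capitals, 5' to 3' on the strand of the gene, at chr11:78984895-78985024 (minus strand, matches 55 bases before and 16 bases after the start) and chr11:46454681-46454960 (plus strand, matches 213 and 7 bases before the start). A match is a string of letters, and binding was not measured.
Lgals9: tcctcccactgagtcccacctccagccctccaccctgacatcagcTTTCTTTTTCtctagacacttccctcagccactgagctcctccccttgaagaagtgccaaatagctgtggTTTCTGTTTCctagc
Havcr2: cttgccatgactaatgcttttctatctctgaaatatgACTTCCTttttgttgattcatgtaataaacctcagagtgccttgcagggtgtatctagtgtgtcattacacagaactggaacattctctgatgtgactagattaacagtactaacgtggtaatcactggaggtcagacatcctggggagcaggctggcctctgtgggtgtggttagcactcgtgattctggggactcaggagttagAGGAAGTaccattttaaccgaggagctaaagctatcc

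Across the TME, most members had their highest level in myeloid-like or in endothelial-like cells, and Cd47 was spread over all 5 main classes. Mean levels of Cd274, Pdcd1, Havcr2, Sirpa, Cd86 and Cd200r1 were highest in myeloid-like cells among the 5 main classes, Cd200 and Lgals9 were highest in endothelial-like cells, and the mean of Cd47 was highest in OPC-like and astrocyte-like cells, with ranges that overlapped those of other classes. Levels are given as CPM, the UMIs of a gene scaled by all UMIs of the cells of a class in a sample. Sums over at least 10 cells were used, which left 7 PDOXs for the myeloid-like, endothelial-like and mural-like classes and 6 for the astrocyte-like and OPC-like classes, where P3 had 3 and 0 cells.

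**Figure D1:**
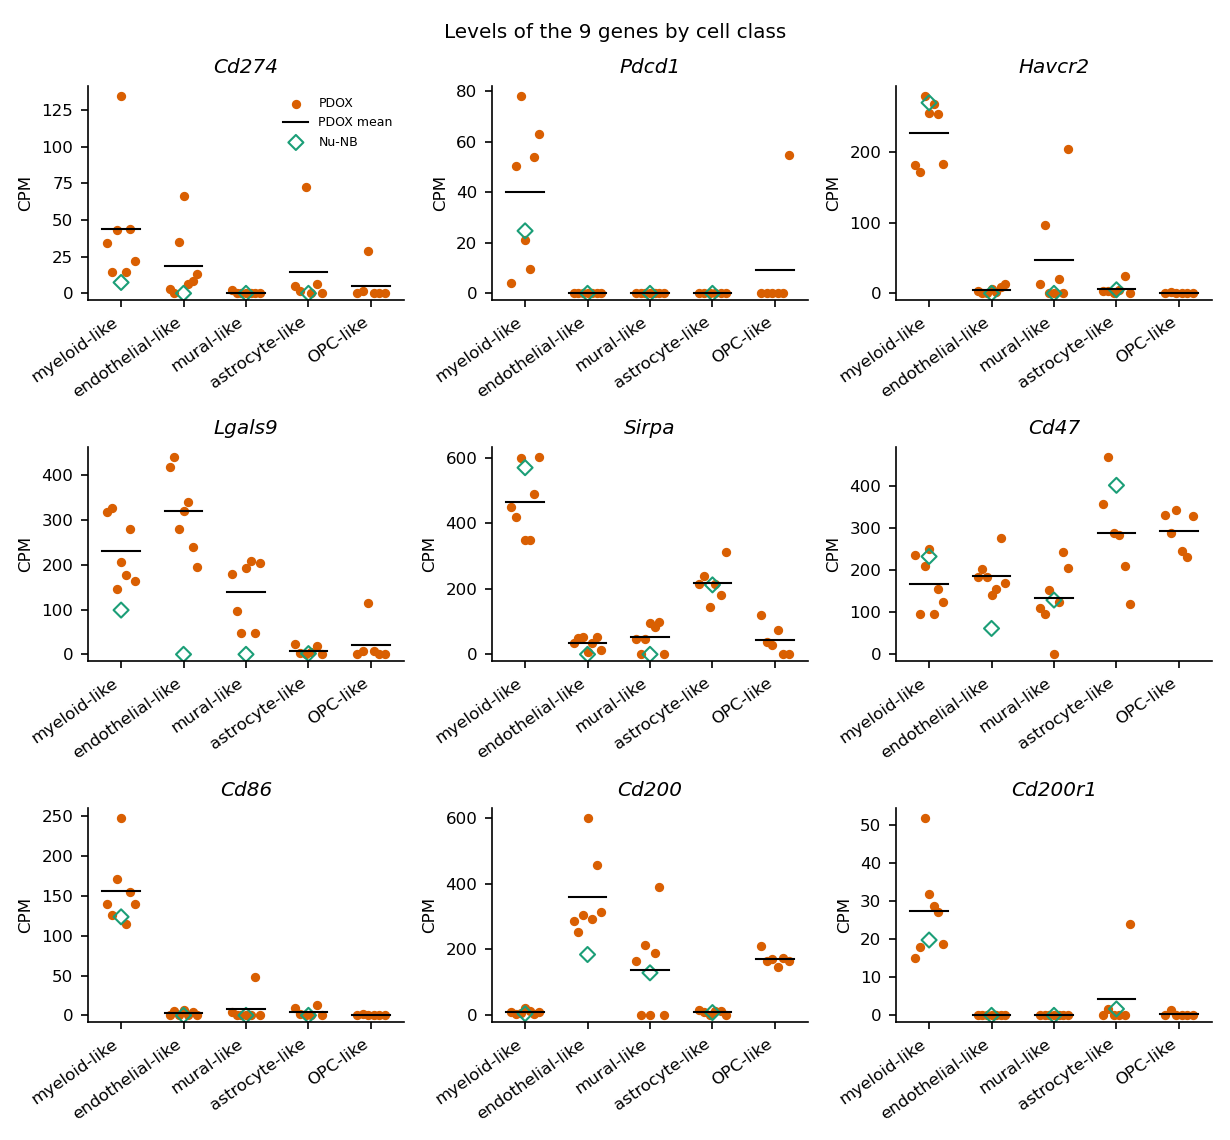
Level of the 9 members (CPM, vertical axis, own scale per gene) in 5 cell classes. Dots are PDOXs, the line is their mean and the open diamond is Nu-NB. Sirpa, Havcr2 and Cd86 peak in myeloid-like cells, Cd200 peaks in endothelial-like cells and Lgals9 is high in both.

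Cd274, which encodes the ligand PD-L1, was a low-abundance transcript of myeloid-like cells. Its level there was 43.4 CPM in P8, 134.6 in T101, 44.1 in T192, 22.2 in T233, 14.4 in P3, 14.4 in T16 and 34.4 in P13 (mean 43.9 ± 41.9, SD, n = 7). T101 stood apart, while the other 6 PDOXs lay between 14.4 and 44.1 CPM. In endothelial-like cells the mean was 18.9 ± 24.0 CPM (n = 7, 25 UMIs in all), led by T101 at 66.6 CPM and P8 at 34.98 CPM, and P3 held none. In astrocyte-like cells 8 UMIs were found in all (14.3 ± 28.6 CPM, n = 6), with T101 again the highest at 72.4 CPM from 2 UMIs. Without T101 the means were 28.8 ± 13.7 CPM in myeloid-like (n = 6), 10.96 ± 12.6 in endothelial-like (n = 6) and 2.64 ± 2.94 in astrocyte-like cells (n = 5). Cd274 was too low in too many libraries of every class, myeloid-like cells included, to pass the filter on low counts of the fits between classes. In myeloid-like cells only P8, T101 and T192 exceeded the 35.7 CPM asked for against endothelial-like cells. Its levels were therefore compared within PDOXs by an exact two-sided sign-flip permutation test of log2(CPM + 10), 1 of 27 such tests. Myeloid-like cells exceeded endothelial-like cells in 7 of 7 PDOXs (mean difference 0.98, exact p = 0.015625) and astrocyte-like cells in 6 of 6 (mean difference 1.54, exact p = 0.03125), which are the smallest p-values that 7 and 6 pairs allow.

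Pdcd1, which encodes PD-1, was found among the named classes in myeloid-like cells, and otherwise as 1 UMI in OPC-like cells of T233, while mixed cells held part of its UMIs. In myeloid-like cells it reached 78.2 CPM in P8, 63.2 in T233, 53.8 in T192, 50.3 in P3, 21.3 in T101, 9.58 in T16 and 4.13 in P13 (mean 40.1 ± 28.5, n = 7). The order of the PDOXs thus differed from that of Cd274, with T101 among the lower samples. No UMI of Pdcd1 was found among 2797033 UMIs of PDOX endothelial-like cells, and none in astrocyte-like cells. With every library of both classes at 0, the direction was given, and no test of these differences is reported.

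PD-1 is best known from T cells, so transcripts of T cells were looked for in the same cells. Of 220 PDOX myeloid-like cells with a Pdcd1 UMI, 219 (99.5%) held at least 3 myeloid markers and 15 (6.82%) held a UMI of Cd3e, Cd3d, Cd3g, Trbc1 or Trbc2, against 58 of all 3545 PDOX myeloid-like cells (1.64%), without matching for depth. These shares are too low where symbols are missing, since the table of P3 lists 1 of these 5 genes and those of T16 and P13 list 3. Over the 4 PDOXs that list all 5, the shares were 14 of 204 (6.86%) and 54 of 2550 cells (2.12%). For Cd274 there were 210 such cells, of which 205 (97.6%) held at least 3 myeloid markers and 10 (4.76%) a T-cell UMI, or 10 of 184 (5.43%) over those 4 PDOXs. Only 2 of the 12 markers of T and NK cells were listed in every table, and Ccl5 is 1 of them. Ccl5 was also among the leading genes of M7 and M10, clusters of myeloid-like cells described below, so the sum is not specific to T and NK cells. The summed level of the 2 markers in the myeloid-like cells ran from 4.43 to 1013 CPM over the PDOXs (median 110.2) against 2.47 CPM in Nu-NB, with T101 the highest. The part of such cells in the levels of Cd274 and Pdcd1 was not tested.

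Cd86, the costimulatory ligand, was found mainly in myeloid-like cells. Its level was 170.6 CPM in P8, 248.0 in T101, 155.5 in T192, 139.7 in T233, 125.7 in P3, 115.0 in T16 and 140.4 in P13 (mean 156.4 ± 44.3, n = 7), against means of 2.39 ± 2.85 CPM in endothelial-like cells and 3.89 CPM in astrocyte-like cells. No PDOX of any other main class reached the lowest myeloid value, and against astrocyte-like cells 15.1% of all genes tested had no overlap in this direction. In edgeR's quasi-likelihood test over 4595 genes, the fitted difference of Cd86 between myeloid-like and endothelial-like cells was 6.65 ± 0.38 (SE) log2 units.

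Of the 6 members that could be tested between these classes, 3 were called higher in myeloid-like cells (Cd86, Havcr2 and Sirpa) and 1 lower (Cd200) at FDR ≤ 0.01 and |log2FC| ≥ 1. The same rule called 31.7% of all 4595 genes, 17.5% higher and 14.2% lower, so that the classes differ widely. The filter on low counts asked for about 35.7 CPM in as many libraries as 1 class has. Cd86, Havcr2 and Sirpa reached it in 7 of 7 myeloid-like libraries and in 0, 0 and 3 endothelial-like ones, and Cd200 in 0 and 7. All 4 calls therefore belong to members that entered the fit through the class where they were high, which gave their direction, and they are a description. Cd47 and Lgals9 reached it in every library of both classes and were not called. Of all calls 55.1% were higher in myeloid-like cells, and 39.6% when library totals were used without TMM scaling, where the median of all genes moved from 0.014 to −0.31 log2 units. Against astrocyte-like cells, 4 of 5 tested members were higher in myeloid-like cells (Havcr2, Cd86, Lgals9 and Sirpa), with 42% of 6120 genes called, 26.5% higher and 15.6% lower. Of these 4, Sirpa alone passed the filter in both classes, while the other 3 entered through the myeloid-like cells. Between endothelial-like and astrocyte-like cells, 40.9% of 3403 genes were called (19.6% higher in endothelial-like cells, 21.3% lower), and so were all 4 tested members, with Lgals9 and Cd200 higher and Sirpa and Cd47 lower. Of these, Cd47 alone passed the filter in both classes. The higher share of those calls was 48.0%, and 68.8% without TMM, where the median of all genes moved from 0.0055 to 0.56.

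Havcr2, which encodes TIM-3, was found mainly in myeloid-like cells. Its myeloid level was 279.4 CPM in P8, 255.1 in T101, 253.0 in T192, 182.9 in T233, 172.3 in P3, 268.3 in T16 and 181.7 in P13 (mean 227.5 ± 46.4, n = 7). Endothelial-like and astrocyte-like cells held 4.80 ± 4.91 and 5.92 CPM, and mural-like cells ranged from 0 to 204.2 CPM. Myeloid-like cells lay above mural-like cells in 6 of 7 PDOXs, the exception being T233, whose 204.2 CPM rested on 1 UMI in 13 mural-like cells. The fitted difference was 6.10 ± 0.32 log2 units to endothelial-like cells and 5.55 ± 0.37 to astrocyte-like cells, both given as a description because Havcr2 entered these fits through the myeloid-like cells.

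Lgals9, which encodes galectin-9, was found in both endothelial-like and myeloid-like cells. Endothelial-like cells held 279.8 CPM in P8, 319.7 in T101, 240.7 in T192, 195.4 in T233, 441.5 in P3, 340.9 in T16 and 418.8 in P13 (mean 319.5 ± 89.8, n = 7). Myeloid-like cells held 145.7, 205.5, 280.9, 164.1, 326.7, 177.3 and 319.3 CPM in the same order (mean 231.4 ± 76.1, n = 7). The ranges overlap, and endothelial-like cells were the higher in 6 of 7 PDOXs. The edgeR difference of −0.17 ± 0.17 log2 units for myeloid against endothelial did not pass (FDR 0.430), whereas the exact sign-flip test on log2(CPM + 10), which uses no TMM, gave a mean difference of −0.46 (exact p = 0.03125). Mural-like cells, the pericytes and muscle cells of the vessel wall, held 139.5 ± 73.0 CPM (n = 7) and astrocyte-like cells 8.41 CPM. The fitted differences to astrocyte-like cells were 4.41 ± 0.33 log2 units for myeloid-like cells and 4.20 ± 0.36 for endothelial-like cells, again a description, since Lgals9 passed the filter through the higher class.

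Sirpa, the receptor of the CD47 signal, was the most abundant member in myeloid-like cells when levels were read as transcripts counted at the 3' end. It held 600.0 CPM in P8, 347.2 in T101, 487.6 in T192, 602.0 in T233, 420.1 in P3, 349.8 in T16 and 448.7 in P13 (mean 465.1 ± 105.6, n = 7). Among the 5 main classes astrocyte-like cells came next at 144.7 to 312.0 CPM (mean 217.2 ± 56.8, n = 6), below every myeloid value (15.1% of all genes tested had no overlap in this direction), and endothelial-like cells held 34.5 ± 18.8 CPM. Neuronal-like cells, found in sufficient number in 2 PDOXs, held 192.9 and 362.1 CPM (12 UMIs). The myeloid excess was 1.32 ± 0.21 log2 units over astrocyte-like cells (edgeR FDR 2.8e-06) and, as a description, 3.95 ± 0.23 over endothelial-like cells. Without P8 the first of these fell to 0.92 and no longer passed |log2FC| ≥ 1. Reads of Sirpa and of its close paralogs may be shared, and how the counting split them was not tested.

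Cd47, the "don't-eat-me" ligand itself, was broadly spread, and among the 5 main classes its mean level was highest in OPC-like and astrocyte-like cells. OPC-like cells held 294.3 ± 47.6 CPM (n = 6, between 230.5 and 343.8), astrocyte-like cells 288.8 ± 120.0 (n = 6, between 120.0 and 469.3), endothelial-like cells 187.3 ± 44.1 (n = 7), myeloid-like cells 167.4 ± 65.6 (n = 7) and mural-like cells 133.4 ± 78.9 (n = 7). Each neighboring pair in this order overlapped. The edgeR test did not call myeloid against endothelial (0.093 ± 0.22 log2 units, FDR 0.740) or myeloid against astrocyte (−0.54 ± 0.23, FDR 0.0408). Endothelial-like cells held less than astrocyte-like cells (log2FC −1.16 ± 0.26, FDR 7.8e-04), a call lost without TMM (−0.63) and in the exact sign-flip test (−0.54, exact p = 0.15625). With classes called cell by cell, the paired differences turned direction, to 0.38 for myeloid less astrocyte and 0.50 for endothelial less astrocyte. Neuronal-like cells, found in sufficient number in 2 PDOXs only, had a higher mean, 541.4 CPM.

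Cd200 had its highest level among the 5 main classes in endothelial-like cells, and was also found in OPC-like, mural-like and neuronal-like cells. Endothelial-like cells held 306.1 CPM in P8, 599.4 in T101, 455.2 in T192, 312.6 in T233, 253.0 in P3, 292.4 in T16 and 285.6 in P13 (mean 357.8 ± 124.5, n = 7, 887 UMIs). OPC-like cells held 164.9 CPM in P8, 171.9 in T101, 172.8 in T192, 163.8 in T233, 147.2 in T16 and 210.1 in P13 (mean 171.8 ± 20.9, n = 6). These lay below every endothelial value, a comparison for which no share of all genes was computed. Mural-like cells varied from 0 to 389.8 CPM (mean 136.6 ± 146.9, n = 7) and overlapped both. Neuronal-like cells of 2 PDOXs held 103.4 and 192.9 CPM (7 UMIs), and 74 tumor-sample cells of a mixed cluster with Apod and Fabp7 among its leading genes held 542 CPM (35 UMIs). Myeloid-like and astrocyte-like cells held 10.1 ± 6.17 and 8.96 CPM. The fitted difference was −5.07 ± 0.25 log2 units for myeloid-like less endothelial-like cells and 4.07 ± 0.32 for endothelial-like less astrocyte-like cells, and Cd200 entered both fits through the endothelial-like cells.

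Cd200r1, the receptor of CD200, lay on the other side of this pair. Myeloid-like cells held 51.9 CPM in P8, 31.9 in T101, 27.1 in T192, 18.8 in T233, 18.0 in P3, 28.7 in T16 and 15.1 in P13 (mean 27.4 ± 12.5, n = 7). No UMI was found in PDOX endothelial-like cells, so that the direction of this difference was given, and 2 were found in astrocyte-like cells. Against astrocyte-like cells myeloid-like cells were higher in 5 of 6 PDOXs (mean difference 1.57 of log2(CPM + 10), exact sign-flip p = 0.0625). Close relatives of the gene may share its reads.

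Since deep cells show more genes, the share of cells with a UMI was also read at an equal depth of 500 UMIs per cell, which kept 2252 of 3545 PDOX myeloid-like, 1325 of 2030 endothelial-like, 1455 of 2037 astrocyte-like, 576 of 899 OPC-like and 313 of 496 mural-like cells (median depths before thinning between 673 and 696 UMIs). Sirpa was found in 20.1% of myeloid-like cells (95% exact binomial interval 18.5 to 21.8%, unthinned 34.1%), Havcr2 in 10.1% (8.91 to 11.4%, unthinned 21.5%) and Cd86 in 8.21% (7.11 to 9.43%, unthinned 16.8%). The shares in endothelial-like cells, which should lack Havcr2 and Cd86, were 0.377% and 0.0755%. Cd274 was found in 2.13% of myeloid-like cells (1.58 to 2.82%, unthinned 5.92%) against 0.528% of endothelial-like cells (0.213 to 1.09%, unthinned 1.23%) and 0.275% of astrocyte-like cells. Pdcd1 was found in 1.64% (1.16 to 2.26%, unthinned 6.21%) and Cd200r1 in 1.29% (0.864 to 1.84%, unthinned 4.01%), against 0 of 1325 endothelial-like cells for both, where a floor of 3 cells corresponds to 0.226% and the exact binomial upper bound is 0.278% of cells with a UMI at this depth. Intervals cover counting error only.

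At the same depth, Cd200 was found in 15.2% of endothelial-like cells (13.4 to 17.3%, unthinned 24.3%), 7.99% of OPC-like cells (5.91 to 10.5%, unthinned 13.1%) and 7.35% of mural-like cells (4.71 to 10.8%, unthinned 16.1%), against 0.400% of myeloid-like cells. Lgals9 was found in 13.8% of endothelial-like (11.998 to 15.8%, unthinned 24.4%), 10.04% of myeloid-like (8.82 to 11.4%, unthinned 20.7%) and 6.39% of mural-like cells (3.95 to 9.70%, unthinned 12.3%), against 0.550% of astrocyte-like cells. Cd47 was found in 16.2% of astrocyte-like (14.3 to 18.1%, unthinned 23.9%), 13.7% of OPC-like (11.01 to 16.8%, unthinned 20.8%), 9.96% of endothelial-like (8.40 to 11.7%, unthinned 17.6%) and 6.84% of myeloid-like cells (5.83 to 7.96%, unthinned 17.1%). Equal depth thus kept the order of the mean CPM values for Cd200 and Lgals9. For Cd47, astrocyte-like cells had the higher share and OPC-like cells the higher mean CPM, and no order of these classes is read from them.

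**Figure D2:**
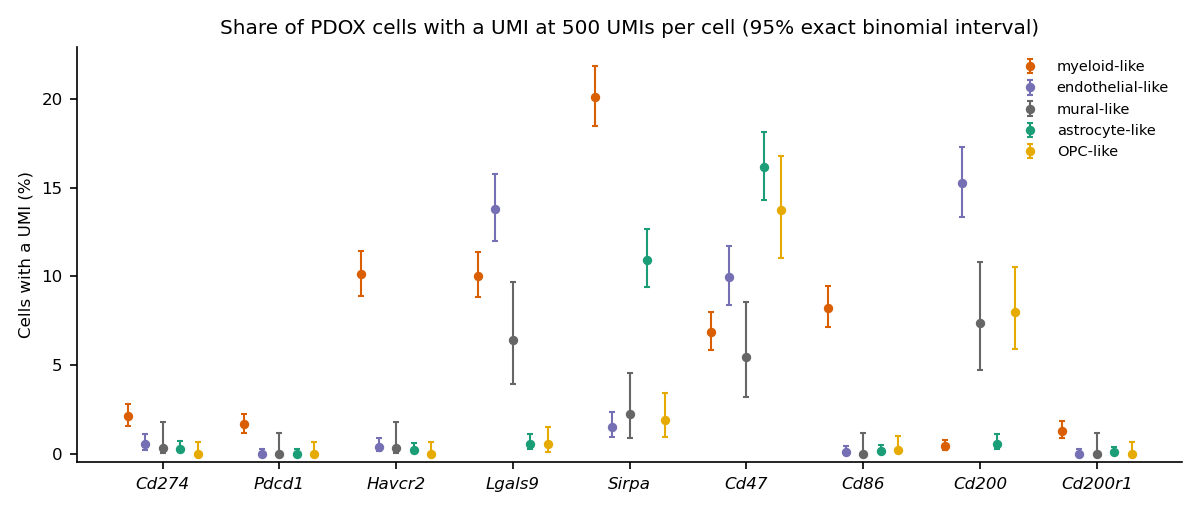
Share of PDOX cells with at least 1 UMI of each member (percent, vertical axis) after thinning each cell to 500 UMIs, in 5 cell classes, pooled over PDOXs, with 95% exact binomial intervals. Sirpa is highest in myeloid-like cells at 20.1%, Cd200 in endothelial-like cells at 15.2%, and Cd47 is found in every class, at 16.2% in astrocyte-like and 6.84% in myeloid-like cells.

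How much of each transcript a class gave to the kept cells of a library depended on the number of its cells too. The shares are of the UMIs in kept cells, so that UMIs of barcodes left out do not count. Endothelial-like cells gave 64.1 ± 24.5% of all Cd200 UMIs (SD over 7 PDOXs, between 15.4 and 89.5%), and OPC-like cells gave 10.1 ± 17.3%. Myeloid-like cells gave 46.9 ± 28.3% of Lgals9 UMIs and endothelial-like cells 27.4 ± 19.2%. For Cd47 the myeloid share was 35.7%, the endothelial share 17.0% and the astrocyte share 10.9%. Myeloid-like cells gave 57.6% of Sirpa, 55.2% of Cd274, 60.6% of Pdcd1, 64.9% of Havcr2, 64.2% of Cd86 and 63.6% of Cd200r1 UMIs, and most of the rest lay in mixed cells.

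The PDOXs were next set against Nu-NB within each class, which asks whether the tumor-bearing brain differs in these genes. As P8 alone shares the sort and symbol release of Nu-NB, these and the tumor cannot be told apart for the other 6 PDOXs. The make-up of the myeloid-like class differed too. The homeostatic microglia-like cluster M0, described below, held 614 of the 688 Nu-NB cells and 214 of the 3545 PDOX cells. The part of this in the differences of the class was not tested. No member was called in myeloid-like cells, where edgeR called 2 of 9039 genes (0.0221%), both lower in PDOXs, and DESeq2 called 215 (2.38%) but no member. With 1 Nu-NB library the test had little reach, and 0% of simulated 4-fold changes were called in this class. At an unadjusted p of 0.05 or less, 20.2% of all genes and 2 members passed, Cd274 and Lgals9.

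Cd274 was at 7.42 CPM in Nu-NB (3 UMIs in 688 cells), below each of the 7 PDOXs, which ranged from 14.4 to 134.6 CPM. The fitted change was 2.75 ± 1.24 log2 units (edgeR FDR 0.236). Lgals9 was at 98.97 CPM in Nu-NB (40 UMIs), also below each PDOX, which ranged from 145.7 to 326.7 CPM, and its fitted change was 1.49 ± 0.56 (edgeR FDR 0.176). These 2 of the 9 members lay above Nu-NB without overlap, as did 17.7% of all genes tested. At 500 UMIs per cell, Lgals9 was found in 4.09% of 318 Nu-NB myeloid-like cells (2.19 to 6.89%) and in 5.96% (T16) to 15.3% (P3) of those of the PDOXs, and Cd274 in 1 of 318 Nu-NB cells (0.314%).

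The other members overlapped Nu-NB. Without TMM the median of all genes moved from 0.11 to −0.15 log2 units here and from 0.56 to −0.071 in endothelial-like cells. Cd86 was at 123.7 CPM in Nu-NB (50 UMIs) and higher in 6 of 7 PDOXs (0.60 ± 0.45 log2 units, edgeR FDR 0.479). Pdcd1 was at 24.7 CPM (10 UMIs) and higher in 4 of 7 (1.08 ± 1.11, FDR 0.613), and Cd200r1 was at 19.8 CPM (8 UMIs) and higher in 4 of 7 (0.75 ± 0.68, FDR 0.561). Sirpa was at 569.1 CPM (230 UMIs) and higher in 2 of 7 PDOXs (−0.018 ± 0.42, FDR 0.987), Havcr2 was at 269.7 CPM (109 UMIs) and higher in 1 of 7 (0.0092 ± 0.38, FDR 0.993), and Cd47 was at 232.6 CPM (94 UMIs) and higher in 2 of 7 (−0.21 ± 0.51, FDR 0.848). The signs of the changes of Sirpa and Havcr2 turned with the scaling or the cells used.

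P8 and Nu-NB share the sort and the symbol release, and were compared as 1 library each with counting intervals only. P8 was higher in Cd274 by 5.84 times (1.91 to 29.1), in Pdcd1 by 3.16 times (1.66 to 6.78), in Cd200r1 by 2.62 times (1.26 to 6.30), in Lgals9 by 1.47 times (1.05 to 2.12) and in Cd86 by 1.38 times (1.01 to 1.91). For Havcr2 the ratio was 1.04 (0.836 to 1.29), and those of Sirpa and Cd47 were 1.05 and 0.905. These values of myeloid-like cells compare the libraries, not the conditions. The clusters of these cells differed as well, with 614 of 688 cells in M0 in Nu-NB and 82 of 575 in P8. P8 had 197 cells in M4 and 196 in M8, where Nu-NB had 4 and 0, and the part of this was not tested.

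In endothelial-like cells, Nu-NB gave only 34 cells and 16248 UMIs. Lgals9 had no UMI there, which allows up to 184.6 CPM at a limit of 3 UMIs in the library, and its PDOX mean was at least 1.73-fold higher, with every PDOX above that limit (edgeR FDR 0.302). Cd200 was at 184.6 CPM (3 UMIs) in Nu-NB and above it in 7 of 7 PDOXs (1.66 ± 0.79 log2 units, edgeR FDR 0.432), and Cd47 was at 61.5 CPM (1 UMI) and above it in 7 of 7 (2.31 ± 0.93, FDR 0.425). No overlap in this direction was seen for 31.6% of the 6356 genes tested. Neither these members nor any other gene was called (0%), while 11.6% of genes had an unadjusted p of 0.05 or less and DESeq2 called 2 (0.0315%).

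In astrocyte-like cells, Cd47 was at 401.7 CPM in Nu-NB (239 UMIs), inside the PDOX range of 120.0 to 469.3 CPM, with a fitted change of −0.45 ± 0.50 log2 units (edgeR FDR 0.773). Sirpa was at 211.8 CPM (126 UMIs), also inside its PDOX range, with a change of −0.0091 (FDR 0.996). Of 6058 genes edgeR called 0 (0%) and DESeq2 2 (0.033%), and 11.6% had an unadjusted p of 0.05 or less.

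Within the myeloid-like class, 15 smaller clusters (M0 to M14) were described by pooled PDOX levels with 95% exact Poisson intervals. Because clusters were drawn from the same cells, these values are a description without a test. Cd274 was highest in M14, led by the interferon-induced genes Rsad2, Isg15, Ifit2 and Ifit3, at 139 CPM (60.03 to 274, 8 UMIs). It was at 116 CPM (75.1 to 171, 25 UMIs) in M7, the monocyte-derived-like cluster led by Ly6c2 and Ccr2, and at 103 CPM (57.4 to 169) in M10, led by H2-Ab1 and Gbp2, which encode proteins of antigen presentation and of the interferon response. In the homeostatic microglia-like clusters M0 and M3, Cd274 was at 12.5 CPM (1.51 to 45.2) and 23.3 CPM (9.38 to 48.1). M10 was nearly a single-library cluster, with 161 of its 166 cells from T101. T101 also gave 146 of the 274 PDOX cells and 15 of the 25 Cd274 UMIs of M7, which without T101 was at 74.4 CPM (35.7 to 137), below M6 (92.6 CPM), while M14 held no cell of T101. M6 was itself nearly a single-library cluster, with 302 of its 327 cells and all 15 of its Cd274 UMIs from T192.

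Sirpa was low in the monocyte-derived-like cells. In M7, Cd47 was at 381 CPM (303 to 472) and Sirpa at 181 CPM (129 to 247), whereas Sirpa was at 612 CPM in M0. Among PDOXs with at least 10 cells in both kinds of cluster, Sirpa was at 131 CPM in monocyte-derived-like against 597 CPM in homeostatic microglia-like cells in P13, 173 against 655 in T101, 283 against 725 in T192 and 325 against 641 in P8. The monocyte-derived-like values rested on 39 Sirpa UMIs over all PDOXs, with 19 cells in P8 and 37 in T192. The homeostatic value of T101 rested on 12 cells, and counting error within single PDOXs is therefore large. Cd47 was at 360.4 against 199 CPM in P13, 425 against 191 in T192 and 519 against 116 in P8, all from 50 or fewer UMIs. In T101 it was at 370.1 CPM against 0 UMIs in 12 homeostatic microglia-like cells, which allows up to 393 CPM at the limit of 3 UMIs, so that no difference was detectable there.

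Lgals9 was also highest in M14 (469 CPM, 309 to 683), and lay between 123 CPM in M6 and 299.99 CPM in M0 elsewhere. Havcr2 was at 319 CPM in M0 and 303 CPM in M4, but at 20.6 CPM (1 UMI) in M12, the border-associated macrophage-like cluster led by Mrc1. Cd86 ranged from 52.4 CPM in M11, whose leading genes (Clu, Ttyh1, Sparcl1) are astrocyte genes, to 239 CPM in M10. Pdcd1 was at 81.8 CPM in M8 and 60.6 CPM in M9, and 0 UMIs were found in M3, which allows up to 12.3 CPM by the interval, and in M12. M8 had 196 of 205 cells from P8, and M9 had a median of 10183 UMIs per cell and Gfap and Clu, astrocyte genes, among its leading genes, so the part of doublets in its values was not tested.

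**Figure D3:**
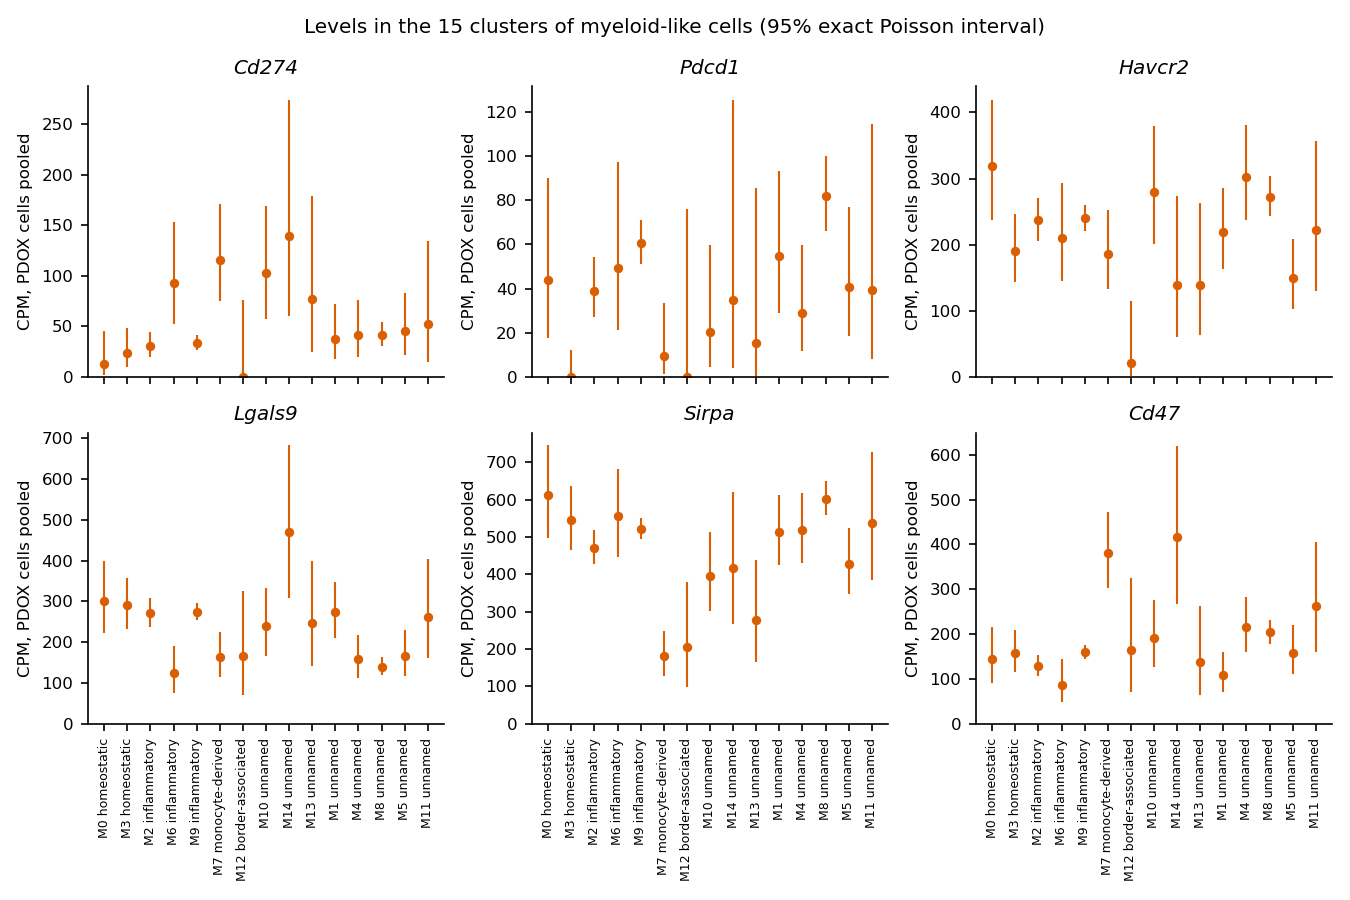
Level of 6 members (CPM, vertical axis) in the 15 clusters of myeloid-like cells, pooled over PDOXs, with 95% exact Poisson intervals. Cd274 is highest in M14, M7 and M10, the latter 2 with most of their cells from T101, and Sirpa is lowest in M7 and M12.

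T101, the PDOX with the highest Cd274, was examined further with a list of 12 genes of the interferon-γ pathway and of factors that stabilize PD-L1. In myeloid-like cells 7 of the 12 were highest in T101 among the PDOXs, as were 18.9% of the 9039 genes tested. Irf1, a transcription factor of the interferon response, was at 372.0 CPM in T101 against a PDOX median of 57.5 and 49.5 in Nu-NB. Nlrc5, an activator of MHC class I genes, was at 70.9 CPM against 14.3 and 0. Not all followed, since Cmtm6 and Cmtm4, whose products stabilize PD-L1, ranked 6 and 7 of 7 in T101 (70.9 and 3.54 CPM) and the receptor gene Ifngr1 ranked 4. These values are side by side in few libraries and were not tested.

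Cd274 of T101 was above that of every other PDOX with and without the clusters that T101 led. It was 134.6 CPM in all its myeloid-like cells (38 UMIs), 169.3 without M10 (24 UMIs), 114.3 without M7 (23 UMIs) and 148.3 without either (9 UMIs). For Cd86 the values were 248.0, 261.1, 198.8 and 115.4 CPM, so that Cd86 without both clusters (7 UMIs) was near the lowest PDOX. At 500 UMIs per cell, Cd274 was found in 5.50% of 218 myeloid-like cells of T101 (2.88 to 9.42%), and in 0.662% (T16) to 2.96% (T192) of those of the other PDOXs.

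**Figure D4:**
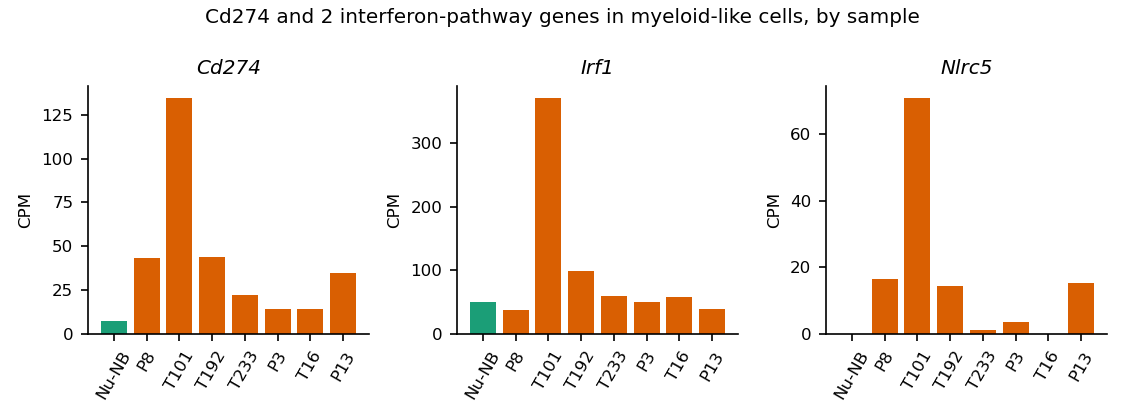
Levels of Cd274, Irf1 and Nlrc5 (CPM, bars from 0) in myeloid-like cells of Nu-NB and the 7 untreated PDOXs. All 3 genes are highest in T101, with Cd274 at 134.6 CPM.

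TMZ was compared in P3, with 1 library on either side and therefore without a test. In myeloid-like cells, Sirpa was at 420.1 CPM in P3 and 564.2 CPM in P3TMZ, a ratio of 1.34 (95% counting interval 1.09 to 1.67), and Havcr2 had a ratio of 1.34 (0.958 to 1.89). Intervals for Cd274 (1.76, 0.566 to 7.22), Cd47 (1.46, 0.943 to 2.34), Pdcd1 (0.815, 0.410 to 1.69) and Lgals9 (1.11, 0.867 to 1.43) spanned 1. The P3TMZ value of Sirpa lay inside the untreated range of 347.2 to 602.0 CPM. With classes called cell by cell, the ratios were 1.19 (1.01 to 1.42) for Sirpa and 1.36 (1.04 to 1.79) for Havcr2. The myeloid-like cells lay in different clusters, M5 holding 103 of 264 cells in P3 and 28 of 328 in P3TMZ, and M2 29 and 81. The part of this in the ratios was not tested. In endothelial-like cells, Cd200 was at 253.0 CPM in P3 and 582.8 CPM in P3TMZ, a ratio of 2.30 (1.59 to 3.36). P3 was the lowest of the untreated PDOXs for Cd200, and the value of P3TMZ lay inside the untreated range of 253.0 to 599.4 CPM. Lgals9 (0.796, 0.541 to 1.15) and Cd47 (0.864, 0.490 to 1.48) spanned 1 in endothelial-like cells. In mural-like cells Cd200 had 0 UMIs in 21 cells of P3 and 7 UMIs in 30 cells of P3TMZ (396.5 CPM).

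**Figure D5:**
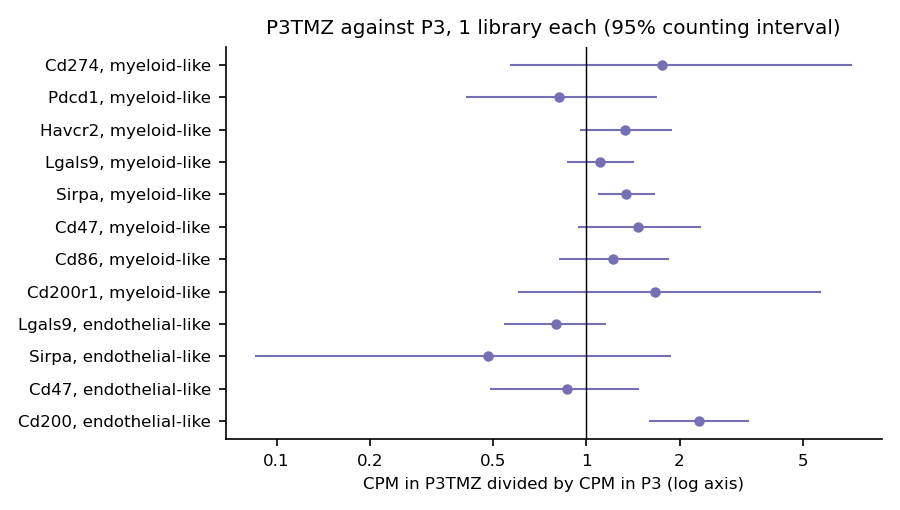
Ratio of CPM in P3TMZ to CPM in P3 (log axis, 1 is no difference) for members in myeloid-like and endothelial-like cells, with 95% counting intervals. With classes taken from clusters, the intervals of Sirpa in myeloid-like cells and of Cd200 in endothelial-like cells exclude 1, and the others include it.

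Further genes of the same pathways were read from lists. Of 11 inhibitory receptors of myeloid cells and their relatives that were found in every table, 5 passed the filter on low counts for myeloid-like against endothelial-like cells. Their mean levels in endothelial-like cells were 1.57 to 13.9 CPM, so that they passed it through the myeloid-like cells and had to be higher there. They are Fcgr2b (7.06), an inhibitory Fc receptor, the siglec Cd33 (5.41), Lilrb4a (6.04) and Pilra (5.34), together with Siglech (6.23), a siglec that has no inhibitory motif of its own. The same filter holds for the other lists, whose counts are a description. The other checkpoint receptors that were called against endothelial-like cells were Lair1 (5.60), a collagen receptor, and Vsir (3.65), which encodes VISTA, and Cd300lf (5.99) led those called against astrocyte-like cells. Of 3 other checkpoint ligands tested, Cd48 was 6.70 log2 units higher in myeloid-like than in endothelial-like cells and Ceacam1, an adhesion molecule and ligand of TIM-3, was lower (log2FC −1.98).

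All 3 tested genes listed as "don't-eat-me" ligands other than Cd47 were higher in myeloid-like than in endothelial-like cells, as were 17.5% of all genes. They were Plxnb2 (3.53), Alcam (1.90) and B2m (1.15), the light chain of MHC class I. Plxnb2 and Alcam reached the filter in 7 of 7 myeloid-like libraries and in 0 and 3 endothelial-like ones, so that their direction was given. B2m reached it in every library of both classes. B2m was also higher than in astrocyte-like cells (3.63), whereas Alcam was lower there (log2FC −1.01). Between endothelial-like and astrocyte-like cells B2m was 2.25 log2 units higher and Alcam was lower (log2FC −3.66), where Alcam entered the fit through the astrocyte-like cells.

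Downstream of these receptors, 6 of 9 tested effectors were higher and 1 lower in myeloid-like than in endothelial-like cells, where 17.5% of all genes were higher and 14.2% lower. Ptpn6, which encodes the phosphatase SHP-1 that SIRPα recruits, was 5.36 log2 units higher, while Ptpn11, which encodes its relative SHP-2, was lower (log2FC −1.19). Against astrocyte-like cells 8 of 11 were higher and 0 lower, with 26.5% and 15.6% of all genes. Of 9 tested regulators of Cd274, 3 were higher in myeloid-like than in endothelial-like cells and 6 of 9 were higher than in astrocyte-like cells, among them Cmtm6 (3.06), which keeps PD-L1 at the cell surface, and Irf1 (1.74). Genes of the opposing "eat-me" signals were split, 4 of 6 higher and 1 lower against endothelial-like cells, where Mfge8, a bridge to phosphatidylserine, was lower (log2FC −1.21), as it was against astrocyte-like cells (log2FC −4.54).

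Between PDOXs and Nu-NB, no gene of any of these lists was called in any class by edgeR. In myeloid-like cells, Lilrb4a, an inhibitory receptor, went from 49.5 CPM in Nu-NB to a PDOX mean of 406.1 CPM (3.30 log2 units, edgeR FDR 0.0850), and B2m from 2096 to 8736 CPM (2.33, FDR 0.104). Vsir, an inhibitory receptor too, was at 1027 CPM in Nu-NB and 332.7 CPM in PDOXs (log2FC −1.36, FDR 0.0898), and Cmtm6 was at 267.2 CPM in Nu-NB and 91.9 CPM in PDOXs (log2FC −1.29, FDR 0.0999). None of these passed the threshold.

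Genes with the most similar pattern were sought over 41 sums of class and PDOX with at least 20 cells, by Pearson's r of log2(CPM + 10), as a description in which sums share libraries. Cd86 was most like Tifab (0.97), Blnk (0.95) and Hcst (0.95), Cd200r1 most like Fcgr4 (0.94), Nfam1 (0.93) and Myo1f (0.92), and Spi1 (0.90) and Cd48 (0.89) were among the 3 genes most like Havcr2. Pdcd1 was most like Hal (0.90), Kcnk13 (0.88) and Klrb1b (0.88), and Cd274 most like Icosl (0.86), Cfb (0.85) and Casp1 (0.84). For Lgals9 the leading genes were BC028528 (0.83), Tmem140 (0.82) and Sp100 (0.82), and for Cd47 they were Zcchc7 (0.81), Xpr1 (0.78) and Mia2 (0.77). Cd200 was most like Lims2, Sema7a and Strn3 (0.77 each), and Sirpa most like Pld4 (0.75), P2ry12 (0.75) and Fgf13 (0.74).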

How the data were processed

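The authors counted the UMIs of each mouse gene in each cell barcode from Drop-seq reads and deposited them as raw counts, whole numbers without normalization. The submitters' processing notes name bcl2fastq 2.0, STAR and GRCm38 (mm10), and whether the counting used strand is not given in the sources used here. Older symbols of Nu-NB and P8 were renamed (588 symbols), which left 12949 in every table. A gene without a UMI in a library can be missing from its table, so that genes absent from Nu-NB were not analysed here. The kept cells had 200 or more genes and 30% or less mitochondrial UMIs, less the 5% with the highest scrublet score per sample, which stood in for DoubletFinder.

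Python 3.11.15 with scanpy 1.11.5 and with leidenalg 0.10.2 gave the clusters (2000 variable genes, 30 components, 20 neighbors, resolution 1) without batch correction. A cluster was named when at least 3 markers of a class were among its 100 leading genes, more than 2 times as many as of any other class, a rule written after clusters had been seen. A cell of a named cluster was moved to the mixed cells when its own UMIs held at least 3 markers of another class, 2 or more above the next class. UMIs were summed per class and sample with at least 10 cells. The sums were tested with edgeR 4.0.16 (quasi-likelihood after TMM scaling, Benjamini-Hochberg FDR ≤ 0.01, |log2FC| ≥ 1; a block per sample within PDOXs) on R 4.3.3, with DESeq2 1.42.0 as an alternative. Paired levels were tested by exact sign-flip permutation. Ranges of CPM cover PDOXs, and intervals (95%, exact, scipy 1.17.1) cover counting error only. The fits were tested on simulated data. Within PDOXs, 93 to 100% of genes with a simulated 4-fold change were called, depending on the comparison.

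The 9 members and the gene lists were chosen with earlier results of these data known. From each list at most 5 called genes per direction are named, and genes named between PDOXs and Nu-NB, where none was called, were chosen after their values were seen. A few genes that these rules pick are not reported here, and counts over lists keep them. Alternatives were DESeq2, no TMM, no filter on low counts, doublets kept, at least 500 genes per cell, classes called cell by cell, other thinning depths, and leaving out each PDOX.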

Additional observations from a re-analysis of the deposited data

Results flagged for a closer look

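Levels in the PDOXs were checked for an outlying sample by Dixon's ratio of gap to range in 25 groups of gene and class, of which chance alone singles out about 1 in 20. The check picked 2, both in myeloid-like cells of T101. Cd274 was at 134.6 CPM there (ratio 0.753, n = 7) and Cd86 at 248.0 CPM (ratio 0.582). The sum of the 2 T and NK cell markers listed in every table, of which Ccl5 is 1, was also highest in these cells (1013 CPM). Ccl5 was also a leading gene of myeloid-like clusters, and the part of T and NK cells in both values was not tested.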

How the results depend on the processing

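Counts of called genes moved with the tool and the filter. For PDOXs against Nu-NB in myeloid-like cells, where 2 genes were called, DESeq2 called 215, and cell-by-cell calls, doublets kept and leaving out clusters led by endothelial, choroid plexus or astrocyte genes (chosen after seeing the data) gave 1 each. Leaving out 1 PDOX gave 1 to 46 (46 without P8, 5 without T16, 1 without T192, T233, P3 or P13). In astrocyte-like cells, with 0 called, DESeq2 gave 2, no filter 33 and leaving out 1 PDOX 0 to 67 (67 without P8, 5 without T192), and in endothelial-like cells DESeq2 gave 2. Within PDOXs, no filter gave 3402 calls for myeloid against endothelial, 4280 for myeloid against astrocyte and 3638 for endothelial against astrocyte, against 1458, 2573 and 1392, and leaving out 1 PDOX gave 1404 to 2052, 1637 to 2879 (1637 without P8, 1641 without P13) and 1204 to 1661. The cause was not tested.

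Some small changes turned sign. For Havcr2 against Nu-NB in myeloid-like cells the log2 change was −0.031 with DESeq2, −0.25 without TMM, −0.16 with doublets, −0.27 cell by cell, −0.041 without monocyte-derived-like and border-associated clusters, −0.00016 without the foreign-led clusters, and −0.030 to 0.064 with 1 PDOX left out. For Sirpa in myeloid-like cells it was 0.040 without a filter, 0.12 at 500 genes and −0.15 to 0.056 with 1 PDOX left out, and in astrocyte-like cells 0.029 without TMM, 0.011 with doublets, 0.017 at 500 genes and −0.067 to 0.10. For Cd47, myeloid against endothelial was −0.23 without TMM, −0.21 by sign-flip and −0.041 to 0.24 with 1 PDOX left out. Among mean paired differences, Havcr2 endothelial less astrocyte was −0.35 with doublets and −0.46 at 500 genes, Cd200 myeloid less astrocyte was −0.11 at 500 genes, and cell by cell Cd47 was 0.38 for myeloid less astrocyte and 0.50 for endothelial less astrocyte.

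Of fitted changes of members under alternatives, 408 kept direction and side of the threshold, 23 reversed, 6 lost the call and 1 gained it. Of sign-flip differences, 62 kept both, 5 reversed, 10 lost the call and 1 gained it, and of mean levels 81 moved by less than the SD and 9 by more. No paired analysis was possible because the labels give no replicate numbers that Nu-NB and the PDOXs share and there is 1 Nu-NB library. At 500 genes, Nu-NB kept fewer than 10 endothelial-like cells, so that fit was not run. Depth limits the members with few UMIs, such as Cd274, Pdcd1, Cd200r1 and, in myeloid-like cells, Cd200.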

Other observations

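In Nu-NB, 88.3% of the Cd200 UMIs of kept cells came from mixed cells, where the level was 635.6 CPM (83 UMIs, with 118 in the whole library). Of these, 80 UMIs were in 92 cells of a cluster with Apod and Fabp7 among its leading genes, at 967 CPM. The same cluster held 74 cells of tumor samples at 542 CPM of Cd200 and 1038 CPM of Cd47. Its cells thus had more Cd200 than the endothelial-like cells of Nu-NB (184.6 CPM, 3 UMIs), and the cluster has no name here because its 4 astrocyte markers were not more than 2 times its 2 oligodendrocyte markers.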
